A study of Mus musculus with 6 samples.

Results

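The 9 leukocyte adhesion genes, which encode the integrin chains Itgal, Itgam, Itgax, Itgb2, Itga4, Itgb7 and Itgae, the selectin ligand Selplg and the endothelial receptor Vcam1, were followed in the lungs of WT and Zpbp2 KO mice. They were taken by gene symbol from the table of 47069 genes, where 10 rows carry the 9 symbols. The lungs came from adult mice at ZT10, that is 10 hours after lights on, and each of the 3 WT (WT4 to WT6) and 3 KO (KO4 to KO6) animals gave 1 library. WT mice were C57BL/6J. KO mice carried the Zpbp2 tmZuk allele, made in a 129S7 background and kept on C57BL/6J, which lacks the first exons and part of the promoter of Zpbp2 in every cell. Both groups were bred in the same colony. The comparison asks which lung transcripts differ when Zpbp2 is disrupted.

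Integrins are surface receptors made of an alpha chain and a beta chain. The beta2 chain (Itgb2) joins Itgal to form LFA-1, Itgam to form Mac-1 and Itgax to form CD11c/CD18, and these receptors hold white blood cells on ICAM proteins of the vessel wall or bind complement fragments. The chain encoded by Itga4 pairs with beta1 to bind VCAM1, or with the beta7 chain (Itgb7) to bind MADCAM1 in gut vessels, and Itgae pairs with beta7 to hold lymphocytes to E-cadherin of the epithelium. PSGL-1, the product of Selplg, lets white blood cells roll on selectins before integrins arrest them, and in the lung it is carried by most white blood cells. Itgax is also strongly expressed by mouse alveolar macrophages and dendritic cells.

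Between 19981428 and 46796908 reads per library were counted on genes, with KO5 the deepest, so that 3 counts, the smallest number taken as detected, amounted to 0.0629 to 0.148 CPM, the counts scaled to library size. This floor covers counting error only. Counts of Zpbp2 itself were 1, 2 and 2 in WT4, WT5 and WT6 and 0 in every KO library, all at or below the floor, so its loss was not measurable here. Xist had 15033 to 47369 counts in every library, and the Y-linked Ddx3y had 0 counts in 5 libraries and 9 in KO5. Lung epithelial markers were abundant in every library, with Sftpc, a surfactant protein, between 9327 and 13765 CPM. KO5 stood apart from KO4 and KO6 in B cell markers, whose summed level was 907 CPM in KO5 against 214.4 and 248.6 CPM in KO4 and KO6, so that the fits of the 9 genes are also given without KO5.

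In the GRCm38 build, read from GENCODE, Itgal (ENSMUSG00000030830), Itgam (ENSMUSG00000030786) and Itgax (ENSMUSG00000030789) lie in this order on the plus strand of chromosome 7. Itgal runs from 127296260 to 127335138, and Itgam starts 728 kb further, from 128062640 to 128118491. Itgax follows Itgam after 11.1 kb, from 128129547 to 128150657. A second row with the symbol Itgam (ENSMUSG00000108596) is named Gm49368 in GENCODE, and it shares 3450 of the 5024 exon bases of Itgam (68.7%) on the same strand. A counter that drops reads falling on 2 genes would keep only the reads of the unshared part, so the level of Itgam may be understated, while its ratio between groups is formed on the same bases in each library. The second row had 2, 2 and 4 counts in WT mice and 7, 13 and 5 in KO mice, was removed by the filter on low counts and was not tested. Itgb2 (ENSMUSG00000000290) lies on chromosome 10 from 77530252 to 77565708, and Itga4 (ENSMUSG00000027009) on chromosome 2 from 79255426 to 79333123. Of the exon bases of Itga4, 8.04% are shared with Cerkl on the opposite strand. Itgb7 (ENSMUSG00000001281) lies on chromosome 15 from 102215995 to 102231944, and Selplg (ENSMUSG00000048163) on chromosome 5 from 113818536 to 113832644. Vcam1 (ENSMUSG00000027962) lies on chromosome 3 from 116109949 to 116129688. Itgae (ENSMUSG00000005947), on chromosome 11 from 73090583 to 73147446, is the only member on the chromosome of Zpbp2, 25.4 Mb before it.

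The promoters of 4 of the 9 genes (Itgam, Itgax, Itga4 and Itgb7) were matched in RefSeq for GRCm38.p6. Itgam and Itgax are shown because they are neighbours that encode partners of the same beta chain, and Itga4 because it had the largest change of the 9 genes. Each line holds the 250 bases before the annotated start, on the plus strand, for Itgam from chr7:128062390-128062639, for Itgax from chr7:128129300-128129549 and for Itga4 from chr2:79255176-79255425. Capitals mark GAGGAA, a core of sites for the myeloid and B cell factor PU.1, or TGTGGT, a core of sites for RUNX factors, on either strand (TTCCTC and ACCACA on the other).
Itgam: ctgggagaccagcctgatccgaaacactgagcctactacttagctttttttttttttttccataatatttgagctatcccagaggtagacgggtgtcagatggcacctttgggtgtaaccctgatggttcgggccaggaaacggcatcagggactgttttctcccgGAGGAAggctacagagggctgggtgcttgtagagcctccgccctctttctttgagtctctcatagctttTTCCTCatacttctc
Itgax: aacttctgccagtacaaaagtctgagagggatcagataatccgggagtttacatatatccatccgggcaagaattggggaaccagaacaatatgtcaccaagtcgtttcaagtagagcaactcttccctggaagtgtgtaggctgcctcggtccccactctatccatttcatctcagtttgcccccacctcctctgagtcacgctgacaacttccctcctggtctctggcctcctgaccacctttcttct
Itga4: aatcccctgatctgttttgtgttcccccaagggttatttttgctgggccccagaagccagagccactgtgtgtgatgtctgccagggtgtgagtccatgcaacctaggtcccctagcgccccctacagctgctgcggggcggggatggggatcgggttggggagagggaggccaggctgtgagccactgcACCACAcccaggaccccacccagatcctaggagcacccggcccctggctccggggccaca
The Itgam window held GAGGAA at 84 bases before the start on the plus strand and again at 15 bases on the minus strand. TGTGGT was matched in the Itga4 window, at 60 bases before the start on the minus strand. The Itgax and Itgb7 windows held neither. Over the 32851 promoters of the same length, 23.3% held GAGGAA and 14% held TGTGGT, so a match in a window is common and is given as a description.

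Of the 9 genes, 6 rose in KO mice and none fell. Itga4, Itgal and Itgam rose most, at 2.19- to 2.62-fold, Itgb2, Selplg and Itgax rose 1.51- to 1.66-fold, and Itgb7, Itgae and Vcam1 did not pass the test. Differences were tested with the quasi-likelihood method of edgeR, p-values were adjusted by Benjamini-Hochberg over the 17037 genes that passed the filter on low counts, and a gene was called at an adjusted p-value of at most 0.05. By this rule 3.72% of all genes tested were called higher, 2.67% lower and 6.39% in either direction. The median log2 fold change of the 9 genes was 0.73, against 0.0030 over all genes tested, and all 9 fitted values were above 0, as for 50.6% of all genes. In 8 of the 9 genes each KO value lay above each WT value, as in 17% of all genes tested (32.6% in either direction). None of the 9 reached the log2 fold change of 1.5 that the study set as its second threshold. In the fit used here 109 genes (0.64%) passed it together with the first. This count is not the study's own, which was smaller and drew on both edgeR and DESeq. In bulk tissue, more cells of a type and more RNA per cell cannot be told apart.

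**Figure D1:**
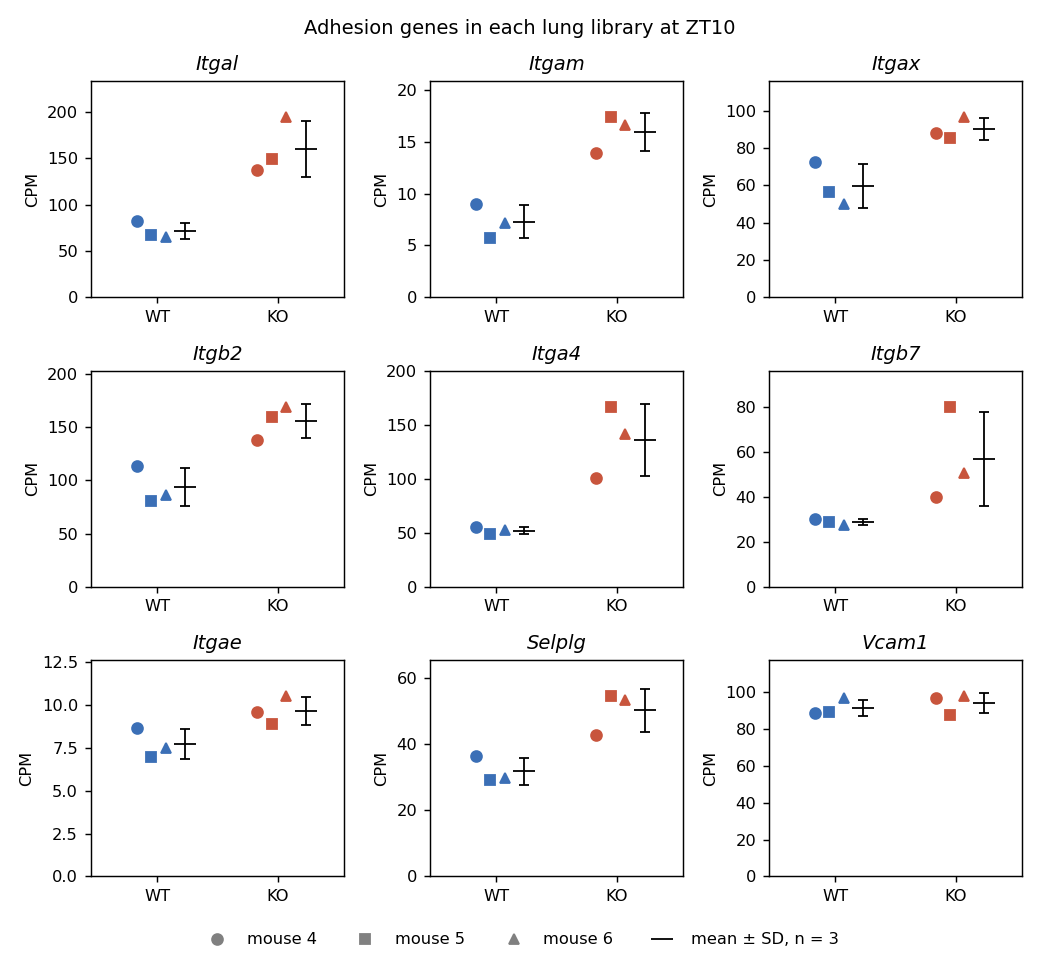
CPM (on TMM-scaled library sizes, linear axes from 0) of the 9 genes in the 3 WT and 3 KO libraries, with the mean and SD of each group beside the points. The KO points lie above the WT points in every panel but that of Vcam1, and KO5 (square) stands highest for Itga4, Itgb7, Itgam and Selplg.

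Among the alpha chains that join beta2, Itgal, the chain of LFA-1, measured 81.9, 67.0 and 65.4 CPM in WT4, WT5 and WT6 and 137.4, 149.4 and 194.5 CPM in KO4, KO5 and KO6. The groups did not overlap, and KO6 held the highest value. The log2 fold change came to 1.17 ± 0.146 (SE, adjusted p = 0.0137 by edgeR). Itgam, the chain of Mac-1 on neutrophils and monocytes, measured 8.98, 5.75 and 7.15 CPM in the WT libraries and 13.9, 17.4 and 16.6 CPM in the KO libraries. These values come from 120 to 830 counts per library, and all KO libraries lay above all WT libraries. Its log2 fold change was 1.13 with an SE of 0.174 (adjusted p = 0.0211 by edgeR). Itgax, the chain of CD11c, measured 72.7, 56.4 and 50.03 CPM in WT mice and 88.3, 85.7 and 96.7 CPM in KO mice. WT4 lay closest to the KO range, and the log2 fold change came to 0.60 ± 0.132 (SE, adjusted p = 0.0452 by edgeR). The shared partner Itgb2 measured 113.8, 81.0 and 86.3 CPM in WT4, WT5 and WT6, against 138.1, 159.2 and 169.2 CPM in KO4, KO5 and KO6. Here too WT4 was the highest WT library without reaching the KO libraries. The log2 fold change for Itgb2 came to 0.73 with an SE of 0.137 (adjusted p = 0.0312 by edgeR).

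The alpha4 chain rose most. Itga4 measured 55.1, 49.1 and 52.3 CPM in WT4, WT5 and WT6 and 100.9, 167.1 and 141.6 CPM in KO4, KO5 and KO6. The WT libraries lay close together, and the lowest KO library, KO4, was well above them. Its log2 fold change was 1.39 with an SE of 0.170 (adjusted p = 0.0132 by edgeR), and it was 1.21 without KO5 (adjusted p = 0.0108). Itgb7, the beta chain that pairs with alpha4 and alphaE on lymphocytes, measured 30.2, 28.8 and 27.6 CPM in WT mice and 40.0, 80.0 and 50.5 CPM in KO mice. KO5 was the highest, as it was for the B cell markers, and the part of that library's B cell signal in Itgb7 was not tested. Its log2 fold change, 0.99 ± 0.233 (SE), missed the threshold (adjusted p = 0.0530 by edgeR). Without KO5 the log2 fold change of Itgb7 was 0.65 and the adjusted p was 0.0208, past the threshold. Itgae, the alphaE chain of epithelial T cells and some dendritic cells, measured 8.70, 6.996 and 7.50 CPM in WT mice and 9.58, 8.89 and 10.5 CPM in KO mice. The KO values stood just above the WT values, by 0.32 ± 0.126 (SE) on the log2 scale (adjusted p = 0.168 by edgeR).

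Selplg, which encodes PSGL-1, measured 36.5, 29.0 and 29.7 CPM in WT4, WT5 and WT6 and 42.8, 54.4 and 53.4 CPM in KO4, KO5 and KO6. The groups did not overlap, and the log2 fold change came to 0.66 ± 0.122 (SE, adjusted p = 0.0299 by edgeR). Vcam1, the counter-receptor of alpha4beta1 on activated endothelium and stromal cells, measured 88.8, 89.6 and 96.8 CPM in WT mice and 96.7, 87.9 and 97.9 CPM in KO mice. Its groups overlapped, with KO5 below every WT library. The log2 fold change of Vcam1 was 0.036 with an SE of 0.0618 (adjusted p = 0.763 by edgeR). Exact permutation tests of log2 CPM (two-sided) gave p = 0.1, the smallest that 3 mice against 3 allow, for each of the other 8 genes and p = 0.8 for Vcam1.

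The direction of change was the same in every fit that left out 1 mouse, but the calls were not. Itga4 and Itgal were called in 4 of these 6 fits, Itgam, Itgb2 and Selplg in 3, Itgb7 in 2, Itgax in 1, and Itgae and Vcam1 in 0. Without WT5 no member was called, with adjusted p-values from 0.0857 upwards, and over all genes 1 was called in place of 1089. Without WT6 no member was called either (adjusted p from 0.0645), where 63 of all 17136 genes tested were called. Without KO6 only Itga4 and Itgal were called, where 117 of all 17421 genes tested were. Without KO5 the log2 fold changes were 1.21 for Itgal, 1.06 for Itgam, 0.63 for Itgax, 0.71 for Itgb2, 0.60 for Selplg and 0.37 for Itgae. In that fit 6 genes were called, with Itgb7 gained and Itgax lost at an adjusted p of 0.0593, where 3.49% of all genes were called higher.

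**Figure D2:**
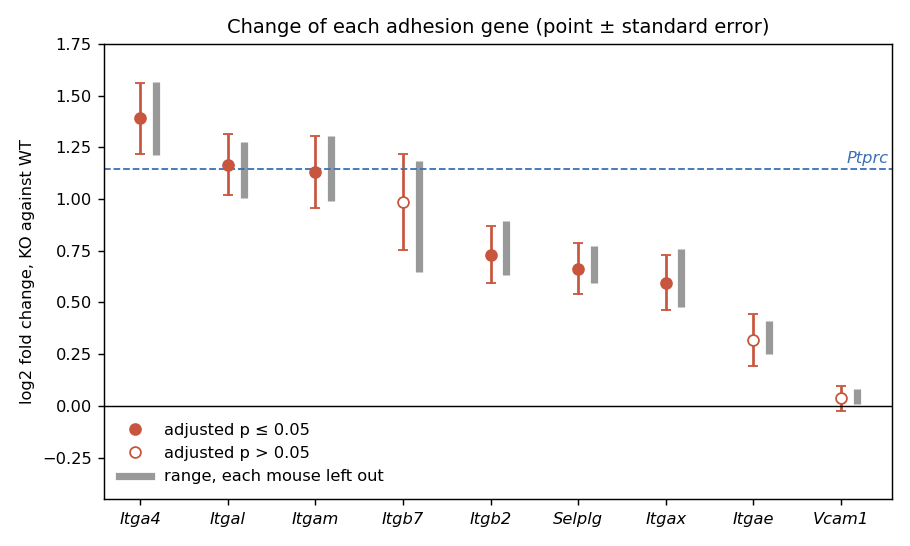
Log2 fold change of each gene in KO against WT mice, with its standard error, ordered by size. Grey bars give the range over the 6 fits that left out 1 mouse, and the dashed line marks Ptprc at 1.15, above which only Itga4 (1.39) and Itgal (1.17) lie.

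Ptprc encodes CD45, which nearly all white blood cells carry, and it served as a reference for the leukocyte genes. It measured 163.7, 139.8 and 146.1 CPM in WT mice and 233.6, 439 and 321.4 CPM in KO mice, which differed by 1.15 on the log2 scale with an SE of 0.209 (adjusted p = 0.0290 by edgeR). Relative to Ptprc, Itga4 was higher in each KO mouse than in each WT mouse. The log2 ratio of Itga4 to Ptprc was -1.57, -1.51 and -1.48 in WT4, WT5 and WT6 and -1.21, -1.39 and -1.18 in KO4, KO5 and KO6, a difference of 0.26 (exact permutation test, p = 0.1, the smallest possible, or 0.18 after Benjamini-Hochberg adjustment over the 9 genes). Leaving out any 1 mouse gave 0.22 to 0.32, and 0.364% of all genes tested lay above Ptprc in this way without overlap. That percentage is low in part because Ptprc itself rose, and the percentage among leukocyte genes was not measured. Itgal and Itgam lay close to Ptprc, with differences of 0.058 and 0.042, overlapping groups and exact permutation p-values of 1 and 0.8. The ratio of Itgal to Ptprc was low in KO5 (-1.55) and high in KO4 (-0.77) and KO6 (-0.72), and the sign of the difference turned without KO4 and without KO6. Itgb2 and Itgax were lower relative to Ptprc by 0.36 and 0.49 in KO mice, with overlapping groups (exact permutation p = 0.3 and 0.2). Itgb7, Selplg, Itgae and Vcam1 were lower relative to Ptprc in each KO mouse, with differences of -0.18, -0.44, -0.78 and -1.06 and p = 0.1 (adjusted 0.18) for each in the exact permutation test, though Itgb7 overlapped when the 7 pan-leukocyte genes replaced Ptprc. Ptprc itself rose, and 86% of all genes tested were lower in this way without overlap.

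**Figure D3:**
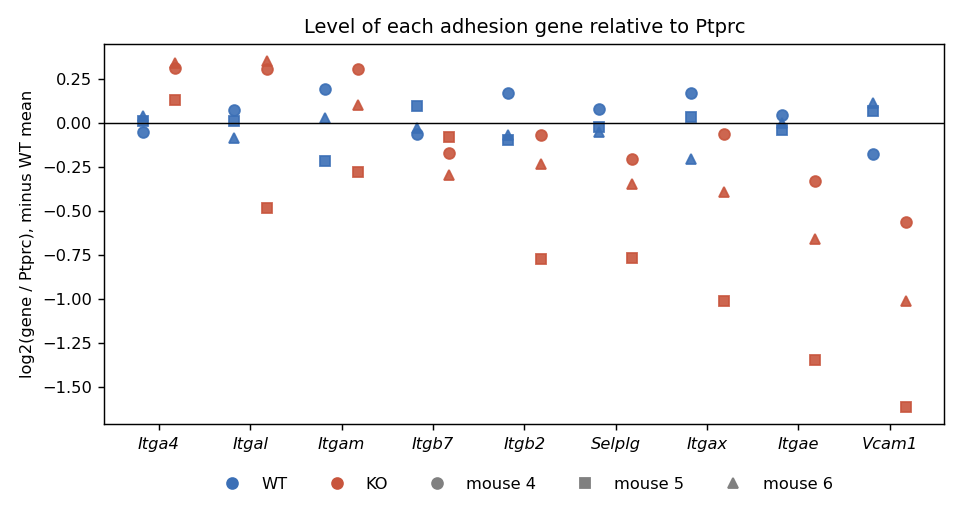
Log2 ratio of each gene to Ptprc in each library, with the mean of the WT libraries subtracted per gene. The 3 KO points of Itga4 lie above its WT points, and the KO5 points (squares) lie lowest among KO mice for all genes but Itgb7.

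Levels of different genes were compared as CPM per kilobase of exon. In WT mice Itgb2 stood highest at 30.7 ± 5.78 CPM per kb (SD, n = 3), followed by Itgax at 12.4 ± 2.43, Itgal at 10.9 ± 1.38, Itgb7 at 10.4 ± 0.458 and Vcam1 at 10.3 ± 0.498, whose ranges overlapped. Selplg at 7.43 ± 0.962, Itga4 at 3.73 ± 0.215 and Itgae at 1.69 ± 0.190 CPM per kb (SD, n = 3) followed without overlap. In KO mice Itgb2 was again highest at 50.9 ± 5.20 CPM per kb (SD, n = 3). Itgal now held the next place at 24.4 ± 4.59, with Itgb7 at 20.5 ± 7.50 and Itgax at 18.8 ± 1.196, where Itgb7 overlapped both others and Itgal and Itgax did not overlap each other. Selplg at 11.8 ± 1.502, Vcam1 at 10.6 ± 0.615 and Itga4 at 9.77 ± 2.39 CPM per kb (SD, n = 3) overlapped, and Itgae was last of these at 2.11 ± 0.178. Itgam stood at 1.45 ± 0.322 in WT mice and 3.18 ± 0.364 in KO mice per kb of all its exons, or at 4.63 ± 1.03 and 10.2 ± 1.16 per kb of its 1574 unshared bases (SD, n = 3). The order rests on the length used, since with the longest transcript in place of all exon bases Vcam1 came after Itgb2 in WT mice at 22.4 ± 1.08 CPM per kb (SD, n = 3).

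Among Itgal, Itgam and Itgax, which share beta2, Itgal held a larger share and Itgax a smaller share in each KO mouse than in each WT mouse. Itgad, which encodes a further alpha chain of beta2, was not part of the sum. On the per-kilobase scale Itgal made up 42.4, 44.2 and 45.7% of the sum of Itgal, Itgam and Itgax in WT4, WT5 and WT6 and 49.7, 51.6 and 55.8% in KO4, KO5 and KO6. Itgax made up 51.5, 50.9 and 47.8% in the WT libraries and 43.7, 40.5 and 37.9% in the KO libraries. The groups did not overlap for either chain, with differences of 8.29 and -9.34 percentage points (exact permutation test, p = 0.1 for each, the smallest possible, or 0.15 after adjustment over the 3 chains). These shares are parts of the same sum, of which Itgam held little, so both differences show nearly the same contrast. How often such shares do not overlap for other genes was not measured. Itgam made up 5.86 ± 0.809% in WT mice and 6.90 ± 0.855% in KO mice (SD, n = 3), with overlapping groups (exact permutation p = 0.2). With the unshared bases of Itgam as its length, its share was 16.5 ± 2.04% and 19.1 ± 2.04% (SD, n = 3), and the differences for Itgal and Itgax were 6.44 and -9.01 points.

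**Figure D4:**
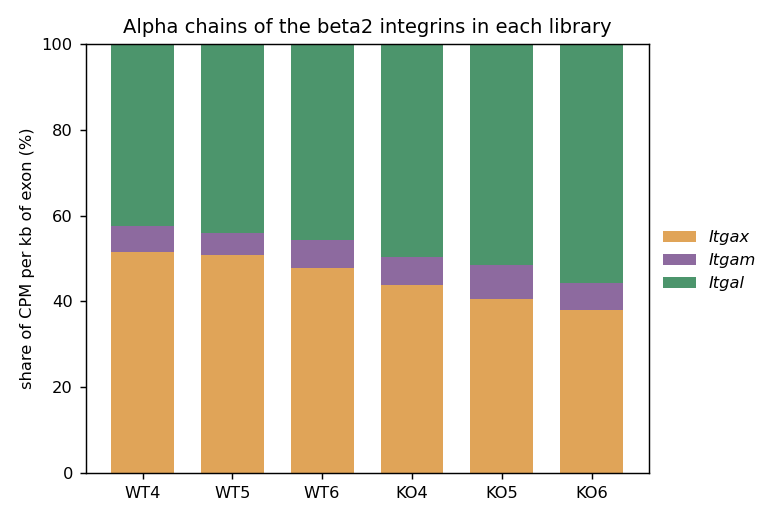
Share (in percent) of Itgax, Itgam and Itgal in their summed CPM per kb of exon, in each library. The share of Itgal is 42.4 to 45.7% in the WT libraries and 49.7 to 55.8% in the KO libraries, and Itgam is the smallest part in each.

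Chains that pair, or that share a partner, were also compared within each library, for 5 pairs chosen after the values were seen. Here log2 CPM were subtracted without division by gene length, unlike the levels per kilobase above. Only the change of a difference between groups is therefore read, and not which chain of a pair stood higher. The log2 difference of Itgal from Itgb2 was -0.38 ± 0.102 in WT mice and 0.034 ± 0.151 in KO mice (SD, n = 3), and that of Itgax from Itgb2 was -0.65 ± 0.132 and -0.78 ± 0.126. The former groups did not overlap and the latter did (exact permutation p = 0.1 and 0.3, or 0.125 and 0.3 after Benjamini-Hochberg adjustment over the 5 pairs). Itga4 minus its partner Itgb7 was 0.85 ± 0.0759 in WT mice and 1.29 ± 0.216 in KO mice, and Itgae minus Itgb7 was -1.89 ± 0.123 and -2.49 ± 0.589 (SD, n = 3). Neither overlapped, nor did Itgal minus Itgax, at 0.27 ± 0.108 and 0.82 ± 0.186 (exact permutation p = 0.1, adjusted 0.125 for each of the 3). Itgal minus Itgax rests on the same values as the shares of these chains above. Because the pairs were chosen on these values, the p-values and the lack of overlap are descriptions only. How often pairs over all genes do not overlap was not measured.

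Several genes that regulate the activation of integrins inside the cell also rose. Of 25 genes for integrin activation, 13 were called higher in KO mice and 0 lower, with a median log2 fold change of 0.80, against 3.72% called higher over all genes. The list was chosen with earlier results of these data known, so this share is a description. It holds genes that restrain integrins, such as Sharpin, Itgb1bp1 and Cytip, beside genes that switch them on, and these were not separated. By size these were led by Fgr, a Src-family kinase (log2 fold change 1.43), Fyb, an adaptor of T cells and myeloid cells (1.35), Rasgrp1, an activator of Ras and Rap (1.28), Plcg2 (1.10), Vav1 (1.10) and Pik3cg (1.003), with adjusted p-values from 0.00800 to 0.0454 by edgeR. Fermt3, which encodes kindlin-3, the leukocyte protein that binds the tails of beta chains, had a log2 fold change of 0.80 (adjusted p = 0.0299 by edgeR) and was named after its values were seen. Tln1 (talin) and Rap1b, the most abundant of the list and used by most cell types, had log2 fold changes of 0.19 and 0.085 and did not pass the test (adjusted p = 0.195 and 0.357). Without KO5, 15 of the 25 were called, with a median of 0.61. For comparison, all 7 pan-leukocyte genes were called higher, with a median of 1.04, or 0.80 without KO5. The levels of the integrin activation genes relative to Ptprc were not measured. Over the 4 adhesion lists 17 genes were called in either direction, and the number was 5 without WT4, 0 without WT5, 2 without WT6 and 4 without KO6. The same fits called 1089, 254, 1, 63 and 117 of all genes tested.

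Among 20 other integrin genes none was called higher and 2 were called lower (1 without KO5), against 2.67% called lower over all genes. Their median log2 fold change was -0.064. The list holds Itgad, a further alpha chain of beta2, and Itgbl1, an integrin-like gene that is not a subunit. Itga6, a laminin-binding chain of epithelium and endothelium, fell by 0.50 on the log2 scale (adjusted p = 0.0423 by edgeR), from 266 ± 5.79 CPM in WT mice to 187.8 ± 30.1 CPM in KO mice (SD, n = 3). Itga10, a collagen-binding chain, fell by 0.76 (adjusted p = 0.0390 by edgeR). Each was called in 1 of the 6 fits without 1 mouse. Itgb1, the beta1 chain that also pairs with alpha4, and Itga8, a chain of lung mesenchymal cells, were the most abundant and had log2 fold changes of -0.094 and -0.035 (adjusted p = 0.482 and 0.802).

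In the lists of vessel wall ligands and of the selectin system, 1 gene each was called, and neither was called without KO5. Of 15 counter-receptor and junction genes 14 were tested, with 1 called higher, 0 lower and a median of -0.056, or 0.012 without KO5. The called gene was Ackr1, a chemokine-binding receptor of venules, with 9 to 63 counts per library and a log2 fold change of 1.34 (adjusted p = 0.0303 by edgeR). The most abundant of this list, Cdh5 and Pecam1, which encode junction proteins of the endothelium, had log2 fold changes of -0.075 and -0.14 and did not pass the test (adjusted p = 0.608 and 0.239). Of 17 genes for selectins and the synthesis of their ligands, 0 were called higher and 1 lower, with a median of 0.012 (0.056 without KO5). That gene was Tpst2, which sulphates tyrosines of PSGL-1 and other proteins, at 61.4 ± 1.31 CPM in WT mice and 53.8 ± 0.382 CPM in KO mice (SD, n = 3), a log2 fold change of -0.19 (adjusted p = 0.0497 by edgeR), which was called in 0 of the 6 fits without 1 mouse. Podxl and Cd24a, the most abundant of the list, had log2 fold changes of -0.14 and -0.092.

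**Figure D5:**
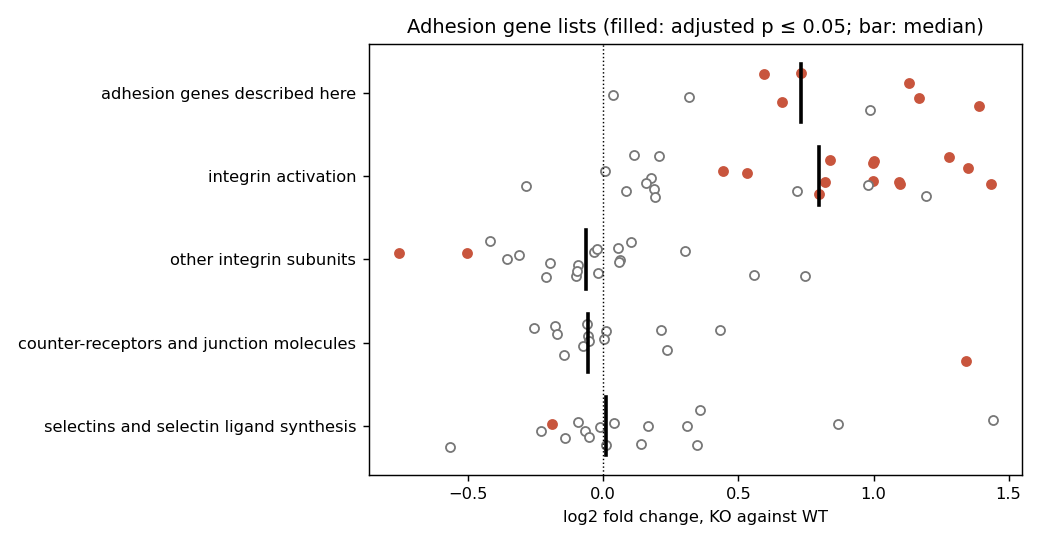
Log2 fold change in KO against WT mice of the 9 adhesion genes and of the genes of 4 adhesion lists, with filled points for an adjusted p-value of at most 0.05 and a bar at each median. The medians are 0.73 and 0.80 for the 9 genes and for integrin activation, and lie between -0.064 and 0.012 for the other lists.

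Pan-leukocyte and most monocyte markers rose in KO mice, other cell types varied, and their part in the results for the 9 genes was not tested. All 7 pan-leukocyte genes rose (median log2 fold change 1.04, or 0.80 without KO5), with a summed level of 701.5 to 815.2 CPM in WT mice and 1124 to 1830 CPM in KO mice. Of the 8 monocyte genes 6 were called higher (median 0.91), and of the 6 neutrophil genes tested S100a8, S100a9 and Retnlg were (3 genes, median 1.01), where the summed level of the neutrophil list was 56.4 to 94.7 CPM in WT mice and 149.5 to 168.5 CPM in KO mice. The 8 alveolar macrophage genes had a median of 0.25 with 1 called higher, Marco, and their summed levels overlapped, at 584.2 to 901.4 CPM in WT mice and 699.4 to 924 CPM in KO mice. Without WT4 that median was 0.45. Dendritic cell genes had a median of 0.63, with 2 called higher (Flt3 and Xcr1) and 1 lower (Zbtb46) of 7, but without KO5 the median was 0.20 with 0 called higher and 1 lower. None of the 7 T cell genes was called, and their median of 0.85 became 0.37 without KO5. Their summed level was 44.5 to 49.0 CPM in WT mice and 50.8, 130.8 and 68.6 CPM in KO4, KO5 and KO6. Among NK cell genes 1 of 6, Ncr1, was called (median 0.76). None of the 6 B cell genes was called over all mice (median 1.94, summed level 109.5 to 127.3 CPM in WT mice and 214.4 to 907 CPM in KO mice), while all 6 were called without KO5 (median 0.99). The lymphoid tissue and high endothelial venule list had 1 gene called of 4 tested, Glycam1, with a median of 1.93 and Ccl21a at 0 counts in every library. Its summed level was 30.2, 109.5 and 42.9 CPM in KO4, KO5 and KO6, and without KO5 none was called and the median was 0.88. None of the 4 mast cell genes tested was called, and their median of 0.50 rested on single libraries, at -0.15 without KO5, 0.020 without WT4 and 1.003 without WT5. None of the 5 platelet genes was called (median -0.36).

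Other markers of the lung included 3 red cell genes that fell. Among 7 endothelial genes the median was -0.075 (log2 fold change) and 1, Cldn5, was called lower (in 0 of the 6 fits without 1 mouse), and none of the 5 fibroblast, 6 epithelial and 4 mesothelial genes was called (medians -0.21, -0.20 and -0.23). The fibroblast median was -0.092 without WT5, and the mesothelial median was 0.017 without WT4 and -0.55 without KO5. Of 4 red cell genes 3 fell, Hbb-bs, Hba-a1 and Alas2 (median -0.87), with a summed level of 1714 to 1839 CPM in WT mice and 830.1 to 1140 CPM in KO mice. Of 6 genes that respond to handling, 1 fell, Hsph1. Their median of -1.52 became -0.35 without WT6, whose summed level was 899.1 CPM against 331.2 and 453.8 CPM in WT4 and WT5. In KO4, KO5 and KO6 the summed level was 282.4, 155.8 and 259.1 CPM, below every WT library. All 6 handling genes had a log2 fold change below 0. The part of handling in the results for the 9 genes was not tested. Retnlg, Xcr1, Cldn5, Alas2 and Hsph1 were named after their values were seen. Over all marker lists 27 genes were called, against 9 without WT4, 0 without WT5, 4 without WT6 and 5 without KO6. Over all genes tested the same fits called 1089, 254, 1, 63 and 117.

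The genes closest in pattern to each member were found by the root mean square difference of centred log2 CPM over the 6 libraries, among 12486 genes of at least 5 CPM on average. Itgb2 lay closest to Tap1, a peptide transporter for MHC class I, and Mpeg1, a pore protein of macrophages, at 0.0419 and 0.0442 on the log2 scale. Itgam was closest to Cybb, the phagocyte oxidase, at 0.0897, and to Themis2 at 0.128. Itgax was closest to Csf1r, the receptor for macrophage colony-stimulating factor, at 0.0722 and to Csf2ra, a chain of the GM-CSF receptor, at 0.0757. Itgal lay nearest Rap1gap2 (0.0823) and Ptpro (0.0869), and Itga4 nearest Rnase6 (0.0646) and Myo1g (0.0822). For Itgb7 the nearest were Rgs14 (0.0550) and Vav1 (0.0649), for Selplg Nlrc5 (0.0483) and H2-Q7 (0.0610), for Itgae Spata24 (0.0382) and Extl2 (0.0437), and for Vcam1 Slc25a17 (0.0167) and Mettl9 (0.0213). Among the members themselves, Itgb2 and Selplg were the closest pair at 0.0763, and Itga4 and Vcam1 the farthest at 0.709. These distances are descriptions, since the libraries share their depth and their group with every gene.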

How the data were processed

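Lung RNA of 6 mice was sequenced from stranded mRNA libraries. Per the submitters' processing notes and the study's methods, the authors trimmed reads with Trimmomatic 0.36, aligned them to GRCm38 with STAR 2.5.3a and counted them with HTSeq 0.6.0 (Picard 2.9.0 is also named). The deposited table holds raw counts, whole numbers for each Ensembl identifier, with no scaling. The annotation release and the strand setting of the counting are not given in the sources used here. Libraries were grouped by their titles, and each pair differed by more than sampling noise.

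The counts were fitted in R 4.3.3 with edgeR 4.0.16 (TMM, filterByExpr with a minimum count of 10 and minimum total of 15, glmQLFit and glmQLFTest) over all 6 libraries without covariates, and p-values were adjusted by Benjamini-Hochberg over all 17037 genes tested. The standard error is the log2 fold change divided by the square root of F. CPM use TMM-scaled library sizes, and log2 CPM a prior count of 2. Single values were compared by two-sided exact permutation tests, which cannot give a p below 0.1 for 3 against 3. Exon lengths and positions were read from GENCODE mouse release 21, which holds 46488 of the 47069 identifiers. The fit was tested on simulated data.

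The members and gene lists were chosen with earlier results of these data known. Named genes were the 9 members, Zpbp2 and Ptprc, of each adhesion list up to 6 called genes with the largest change and the 2 most abundant, leading marker genes, and the 2 genes most like each member. Alternatives were DESeq2 size factors, upper-quartile factors, a minimum of 10 counts in each library, no filter, DESeq2 1.42.0, edgeR's exact test, the replicate number as a block, each mouse left out, another reference or prior count for the ratios to Ptprc, and other gene lengths, of which the unshared exon bases were chosen after seeing the data. Figures were drawn with Matplotlib 3.10.9.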

Additional observations from a re-analysis of the deposited data

How the results depend on the processing

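Log2 fold changes of the 9 genes kept their sign under all 13 alternatives run on them. Between 6 and 7 genes were called under other size factors, other filters, DESeq2 and edgeR's exact test. The replicate numbers did not pair the mice, since deviations of mice with the same number correlated at -0.032, -0.15 and -0.021 and 0 of 6 libraries lay closest to their own number. With the replicate block 0 of the 9 genes were called by edgeR's quasi-likelihood test (8 at an unadjusted p under 0.05), 66 of all genes, 2 in the adhesion lists and 5 in the marker lists, in place of 1089, 17 and 27. Under the block the log2 fold changes were 1.16 for Itgal, 1.15 for Itgam, 0.61 for Itgax, 0.74 for Itgb2, 1.36 for Itga4 and 0.66 for Selplg, with adjusted p-values from 0.0608 to 0.101, and the cause was not tested. DESeq2 called 1913 genes and 47 in the marker lists. Itgb7 passed the threshold with upper-quartile factors (log2 fold change 0.99), without a filter (0.98), with at least 10 counts in every library (0.99), with DESeq2 (0.98) and with edgeR's exact test (0.98). Leaving out 1 mouse moved the calls to between 0 and 6 of the 9 genes, 1 and 1278 of all genes, 0 and 21 in the adhesion lists and 0 and 35 in the marker lists. The log2 fold changes then ranged from 1.01 to 1.28 for Itgal, 0.99 to 1.31 for Itgam, 0.48 to 0.76 for Itgax, 0.64 to 0.89 for Itgb2, 1.21 to 1.56 for Itga4, 0.65 to 1.18 for Itgb7, 0.25 to 0.41 for Itgae, 0.60 to 0.77 for Selplg and 0.0074 to 0.081 for Vcam1. Relative to Ptprc, the difference of Itgal turned to -0.067 without KO4 and -0.087 without KO6 and reached 0.33 without KO5, and that of Itgam turned to -0.067 without WT5 and -0.090 without KO4 and reached 0.20 without KO5. The shares of the alpha chains kept their direction, at 6.58 to 9.63 points for Itgal, 0.56 to 1.38 for Itgam and -10.8 to -7.95 for Itgax. Counting depth limits Itgam and Itgae most, with 120 to 830 and 146 to 424 counts per library. With at least 10 counts in every library no mast cell gene was left, so that list gave no median.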
